A study of Rattus norvegicus with 13 samples.

Results

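The comparison set regenerating axons of rat cortical neurons against the neurons of the same kind of culture, gene by gene, to find which functions were least and which most depleted from the regrowing axon. Its members were the 3 arrays labelled as regenerating axons and the 3 labelled as naive neurons, 6 of the 13 arrays of the series. The arrays were chosen by their labels. The other 7 arrays hold uninjured axons.

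The cells were rat cortical neurons, grown in Neurobasal E medium with B27 supplement in a compartmentalised microfluidic device, where axons grow through narrow channels away from the cell bodies. Neurons and axons were taken at day 13 of culture. The neuron samples came from the compartment of the cell bodies and were not injured. For the regenerating axons the cut was made on day 11, which left 2 days for regrowth. Each GeneChip array received polyadenylated RNA pooled from 3 devices, and all samples went through 2 rounds of amplification. The groups differ both in compartment and in the cut, so differences due to these cannot be told apart here. No other agent separates the groups in the labels, which give neither the age and sex of the animals nor the strain. Separate cultures within a group are not stated either, and every p-value here therefore measures the spread between these arrays, which may be technical.

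Axons lie far from the cell body, and many of their proteins are made there or carried in by motor proteins along microtubules. Axons also hold mRNAs of their own, bound to RNA-binding proteins in granules, and translate some of them locally. Transcripts of ribosomal proteins, mitochondrial proteins and cytoskeletal proteins are well known among these, and local translation has been tied to regrowth after a cut.

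The deposited value of a probe set on an array is a linear ratio to a reference that the labels do not name. Here both groups were assumed to share 1 reference per probe set, the uninjured axon. The reference then drops out of the difference between regenerating axons and neurons, which is the quantity tested. The table does not show that 1 reference served all arrays. Uninjured arrays 1 to 3 have a row median of 1 in 100% of rows, arrays 4 to 6 likewise, and array 7 equals 1 in 100% of rows, so the uninjured arrays were scaled in separate sets. The regenerating and neuron arrays have a row median of 1 in 0.0933% and 0.0193% of rows, and if their references differed, that difference is part of every value below. The ratios of each group to the reference are given beside it as descriptions, and they share that reference. Values were log2 transformed, and the probe sets of a gene were averaged, giving 14217 genes. A difference of −1 on the log2 scale is a level 2-fold lower in regenerating axons. Below, "lower" and "higher" are used of genes that passed limma's moderated test between the groups, 3 arrays against 3, at an adjusted p under 0.05.

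The median ratio of an array lay between 1.01 and 1.02 in regenerating axons and between 0.937 and 0.978 in neurons. The highest ratio of an array was 3.7 to 8.17 in regenerating axons and 209 to 295 in neurons. Array values correlated, across probe sets, at 0.72 to 0.85 among regenerating arrays and at 0.92 to 0.98 among neuron arrays. Across probe sets these are descriptions of arrays that share a reference. A ratio carries no signal level, so a transcript near background cannot be told from one that is well expressed, and depth in the sense of reads does not apply to arrays.

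Neuron array 2 and regenerating array 1 stood apart from the others of their group. The 18 probe sets of the hybridisation controls, bacterial transcripts added just before the array is hybridised, had mean ratios (geometric) of 1.16, 1.37 and 1.55 in regenerating axons. In neurons these means were 0.356, 1.05 and 0.197, so only neuron array 2 was near the regenerating arrays. Neuron array 2 was the lowest of its group in 7168 genes (50.4%), and this differed between functions. It was the lowest in 34 of 34 respiratory complex I genes and 44 of 46 proteasome genes. In contrast, it was the lowest in 3 of 41 smell, taste and pheromone receptor genes and 2 of 30 microglia and macrophage markers. Regenerating array 1 was the highest of its group in 43 of 48 cytosolic ribosomal protein genes, beside 34.0% of all genes. Another 27 control probe sets of bacterial genes had geometric mean ratios of 0.972 to 1.04 on the 6 arrays. Single probe sets among them lay between 0.539 and 1.52. Whether transcripts of these genes were added to the RNA is not known here.

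In total 6279 genes (44.2%) were lower in regenerating axons than in neurons and 4444 (31.3%) were higher. Either call was made for 75.4% of genes, and the groups did not overlap in 79.8%. The 2 directions had unlike sizes. Of the genes that were lower, 4630 were at least 2-fold lower, 1400 (9.85% of all genes) at least 8-fold, 274 at least 32-fold and 26 at least 128-fold. Of the genes that were higher, 1856 were at least 2-fold higher, 63 at least 4-fold and 3 at least 8-fold. The median difference over all genes was −0.23 on the log2 scale.

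The split into lower and higher rests on the scale of the arrays. Shifting the 6 arrays to the same median moved the median difference over all genes to −0.02, with 51.5% of the calls lower in place of 58.6%. A second shift, chosen after the data were seen, set the median of 41 smell, taste and pheromone receptor genes to 0 on each array. It moved the median over all genes to −1.39 and left 11022 genes lower and 262 higher, of which 36 were at least 2-fold higher. The 6279 genes that were lower on the deposited scale were all lower on that scale too. A call of lower for a gene named below was kept under both shifts, whereas a call of higher is relative to the deposited scale. Each shift moves every gene by the same amount, so the order of gene lists and their distance from the median of all genes stay as they are.

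A gene can be depleted against neurons because its ratio is high in neurons or because it is low in regenerating axons. Of the 6279 lower genes, 3863 (61.5%) had a mean ratio of at least 2 in neurons and a ratio between 0.5 and 2 in regenerating axons. In 513 genes (8.17%) the neuron ratio was at least 2 and the regenerating ratio at most 0.5. In 193 (3.07%) only the regenerating ratio was at most 0.5, and in 1702 (27.1%) neither limit was passed. A regenerating ratio of at most 0.5 was found in 749 of all genes (5.27%), of which 712 were lower than in neurons. A neuron ratio of at least 2 was found in 4420 (31.1%).

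The 10 largest falls were in genes of varied function. *Cpe*, carboxypeptidase E, which trims prohormones in secretory granules, had ratios of 0.112, 0.0545 and 0.0372 in regenerating arrays 1 to 3 and of 66.0, 35.5 and 66.9 in neuron arrays 1 to 3. Its difference was −9.79 ± 0.42 (log2, standard error, n = 3 and 3; limma adjusted p = 1.3e-06). *Scg3*, secretogranin III, a sorting protein of the same granules, had ratios of 0.0982, 0.102 and 0.108 against 35.5, 27.4 and 41.7, a difference of −8.38 ± 0.18. Both granule genes were thus low in every regenerating array and far above the reference in every neuron array.

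*Zwint*, a kinetochore protein, had ratios of 0.0833, 0.0230 and 0.0398 in regenerating axons against 37.5, 21.4 and 50.7 in neurons, a difference of −9.66 ± 0.49. *Nrep*, the neuronal regeneration related protein also called P311, had ratios of 0.0765, 0.0238 and 0.0220 against 21.3, 11.9 and 26.6, a difference of −9.11 ± 0.50. *Stmn2*, the microtubule-destabilising stathmin of growth cones also called SCG10, had ratios of 0.215, 0.0365 and 0.0414 against 21.8, 10.9 and 27.8, a difference of −8.09 ± 0.67. In *Nrep* and *Stmn2* regenerating array 1 was several times higher than the other 2 arrays and still far under every neuron array.

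The other five were *Ppp1cc*, a catalytic subunit of protein phosphatase 1, *Btg1*, a growth-arrest factor, *Ywhae*, the epsilon form of 14-3-3, *Cct7*, a subunit of the cytosolic chaperonin, and *Sptan1*, the alpha spectrin under the axonal membrane. Their differences ran from −8.79 ± 0.16 (*Ppp1cc*) to −7.99 ± 0.21 (*Sptan1*). *Ppp1cc* had ratios of 0.118, 0.137 and 0.115 in regenerating axons against 52.5, 48.8 and 62.9 in neurons, with the smallest error of the 10.

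**Figure D1:**
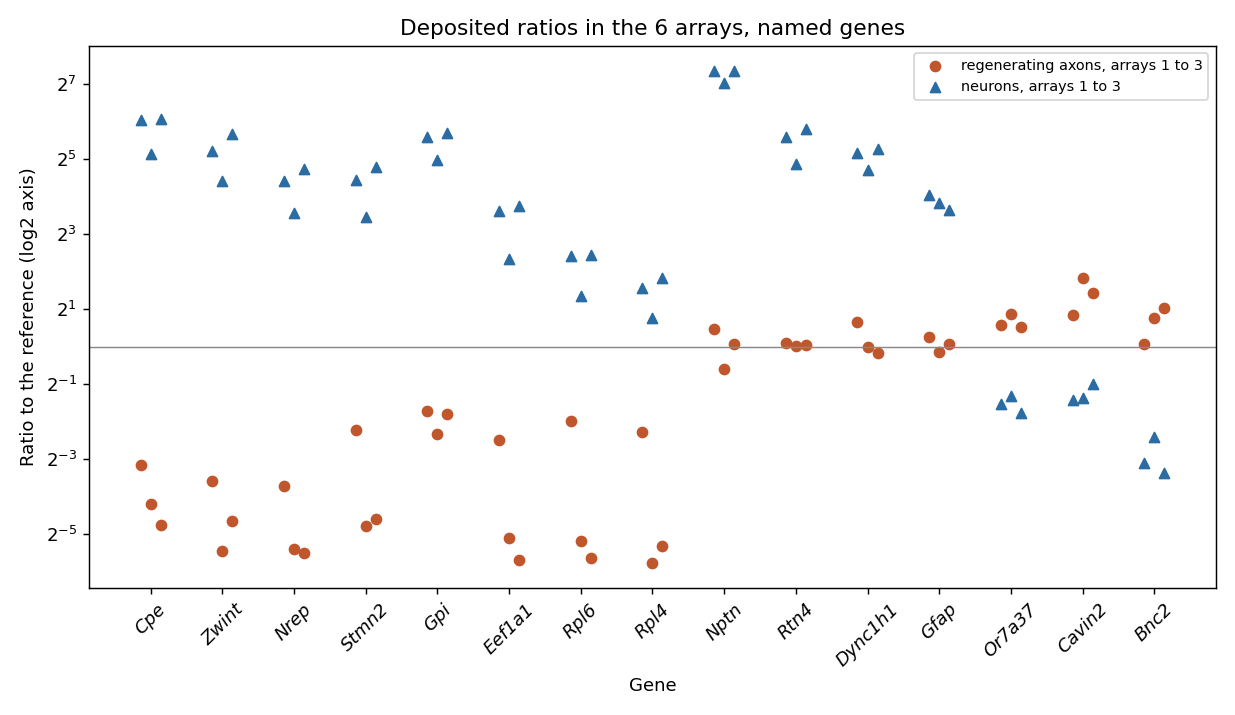
Deposited ratio to the reference (log2 axis) on each of 6 arrays for 15 named genes, circles for the 3 regenerating axon arrays and triangles for the 3 neuron arrays. *Cpe*, *Zwint* and *Nrep* are far under 1 in regenerating axons and far over 1 in neurons, *Nptn*, *Rtn4* and *Dync1h1* stay near 1 in regenerating axons, and *Or7a37*, *Cavin2* and *Bnc2* lie above 1 in regenerating axons and below it in neurons on the deposited scale.

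The genes were then read in 47 lists of functions and cell types. A list is described by its counts and its median difference, beside 44.2% lower, 31.3% higher and a median of −0.23 over all genes. Of the 47 medians, 35 lay under that of all genes and 12 above it.

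**Figure D2:**
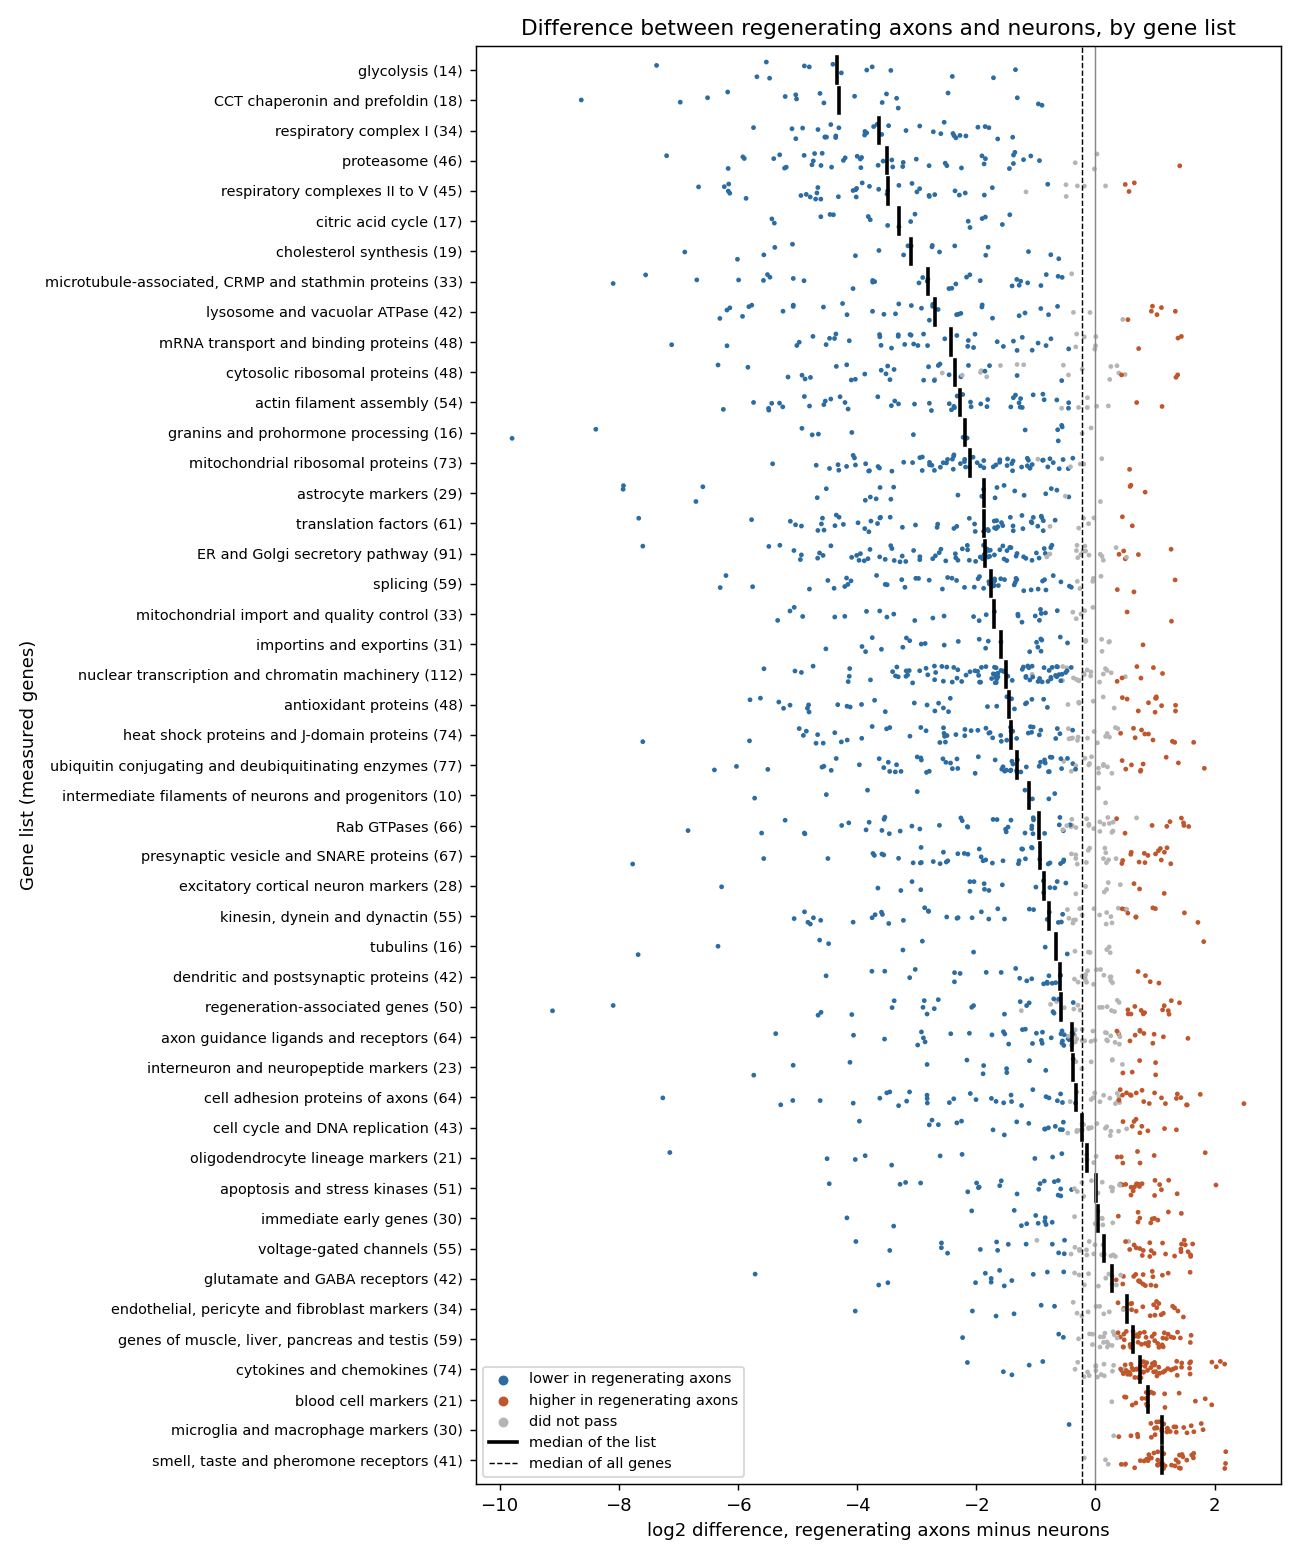
Log2 difference between regenerating axons and neurons (x axis) for each measured gene of 47 lists (y axis, number of measured genes in brackets), with the median of each list as a black bar and that of all genes as a dashed line at −0.23. Glycolysis (−4.33) and the chaperonin list (−4.30) lie at the depleted end, and the microglia (1.11) and receptor (1.12) lists at the other, where under the shift to receptor genes they lie at −0.05 and −0.04.

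Energy metabolism was at the depleted end. All 14 glycolysis genes were lower, with a median difference of −4.33 and a range from −7.36 to −1.34. *Gpi*, glucose-6-phosphate isomerase, had ratios of 0.305, 0.2 and 0.288 in regenerating axons against 48.2, 31.3 and 52.2 in neurons (−7.36 ± 0.25). *Aldoa*, aldolase A, had ratios of 0.315, 0.264 and 0.147 against 12.8, 8.56 and 15.1 (−5.68 ± 0.32). The control probe sets of GAPDH, another enzyme of the pathway, were read apart from the list. Their mean ratios over 3 probe sets were 0.407, 0.197 and 0.195 against 34.8, 15.2 and 39.7.

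All 17 citric acid cycle genes were lower too, with a median of −3.30. *Idh3b* and *Idh3g*, subunits of isocitrate dehydrogenase, were lower by 5.43 ± 0.31 and 5.39 ± 0.38 on the log2 scale. Both lists owed most of their distance to neurons: the list median in neurons was 3.43 for glycolysis and 3.15 for the citric acid cycle, and in regenerating axons −0.62 and −0.24 (log2 ratios to the reference). All 14 glycolysis genes and 16 of the 17 citric acid cycle genes had a neuron ratio of at least 2, and 4 genes of each had a regenerating ratio of at most 0.5.

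The respiratory chain, which makes most of the ATP of mitochondria, was depleted from both sides, with low ratios in regenerating axons as the larger part. All 34 genes of complex I, the NADH dehydrogenase, were lower, with a median of −3.62. Their median log2 ratio was −2.23 in regenerating axons and 1.14 in neurons, 28 of 34 had a regenerating ratio of at most 0.5, and 18 of 34 had a neuron ratio of at least 2. Of the 34 lower genes, 13 passed both limits. *Ndufb10* had ratios of 0.237, 0.152 and 0.172 in regenerating axons against 14.2, 3.57 and 18.6 in neurons (−5.74 ± 0.56). *Ndufs3*, a core subunit, had ratios of 0.679, 0.726 and 0.670 against 29.5, 13.9 and 31.9 (−5.09 ± 0.30), so these 2 subunits reached a similar difference with unlike shares of each side.

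Of 45 genes of complexes II to V, 36 were lower and 3 higher, with a median of −3.49. Their median log2 ratio was −1.89 in regenerating axons and 0.18 in neurons, with 29 of 45 regenerating ratios at most 0.5 and 19 of 45 neuron ratios at least 2. *Atp5f1c*, the gamma subunit of ATP synthase, had ratios of 0.234, 0.0211 and 0.0408 against 6.85, 3.66 and 8.33 (−6.66 ± 0.80). *Atp5f1b*, its catalytic beta subunit, had ratios of 0.368, 0.226 and 0.236 against 23.3, 15.7 and 22.6 (−6.23 ± 0.24). The genes that were higher on the deposited scale include *Cox4i2* (0.56 ± 0.20) and *Cox7b2* (0.65 ± 0.20), tissue-restricted isoforms of cytochrome c oxidase subunits. Both turned to −0.60 and −0.51 under the shift to receptor genes, and without neuron array 3 only 1 gene of the list was higher.

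In complex I, regenerating array 1 was the highest of its group in 27 of 34 genes, and the list medians by array were −1.33, −2.43 and −2.51. Leaving out any 1 of the 6 arrays left 29 to 34 of the 34 genes lower.

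Mitochondrial ribosomal proteins, which translate the mitochondrial genome, were lower in 67 of 73 genes, with a median of −2.11. *Mrpl17* had ratios of 0.330, 0.251 and 0.183 against 12, 7.43 and 13.3 (−5.42 ± 0.29). Unlike the respiratory chain, their median log2 ratio in regenerating axons was only −0.49, and 20 of 73 had a ratio of at most 0.5. Proteins of mitochondrial import and quality control were lower in 26 of 33 genes, among them the import channel subunit *Tomm5* (−5.33 ± 0.36) and the inner-membrane chaperone *Timm13* (−5.13 ± 0.41). The share of genes low in regenerating axons thus differed between the mitochondrial lists.

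Cytosolic ribosomal proteins form the translating machine of the cytosol. They had the lowest list median in regenerating axons, −3.05 as a log2 ratio to the reference over the mean of the 3 arrays, and 39 of 48 genes had a regenerating ratio of at most 0.5. On regenerating array 1 alone their median (−1.07) lay above those of complexes II to V (−1.43) and complex I (−1.33). Their neuron median was itself below the reference, at −0.53. Against neurons 28 of 48 were lower and 3 higher, with a median difference of −2.36, and the groups overlapped in 25 genes. Sequence copies and pseudogenes of ribosomal proteins are common, and probe sets that match several symbols were left out, so the values of single members are uncertain.

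*Rpl6*, of the large subunit, had ratios of 0.253, 0.0277 and 0.0202 in regenerating axons against 5.33, 2.54 and 5.47 in neurons (−6.33 ± 0.88; limma adjusted p = 0.00037). *Rpl4*, also of the large subunit, had ratios of 0.209, 0.0184 and 0.0254 against 2.99, 1.70 and 3.55 (−5.83 ± 0.84). In both genes, regenerating array 1 was about as far from arrays 2 and 3 as it was from neurons on the log scale. *Rplp0*, of the ribosomal stalk, had the lowest mean in regenerating axons, with ratios of 0.478, 0.01 and 0.01, the last 2 at the lowest value the table holds, against 0.884, 0.361 and 0.881. Its groups overlapped and its difference was −4.17 ± 1.39 (limma adjusted p = 0.025). *Rpl30* (1.35 ± 0.14) and *Rps13* (1.38 ± 0.18) were higher on the deposited scale, and did not pass after the shift to receptor genes.

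The ribosomal result depended on which regenerating arrays were used. The list median by array was −1.07, −3.93 and −3.74 in regenerating arrays 1 to 3, and −0.25, −1.20 and −0.16 in neuron arrays 1 to 3. Regenerating array 1 exceeded the mean of the other 2 by a median of 2.82 on the log2 scale, beside 0.00 over all genes. Without regenerating array 1, 38 genes were lower and the median difference was −3.23. Without array 2 or array 3, 17 genes were lower in each case, with medians of −1.77 and −1.95. Without neuron array 1, 2 or 3, the number lower was 21, 32 or 20. What sets regenerating array 1 apart was not tested.

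**Figure D3:**
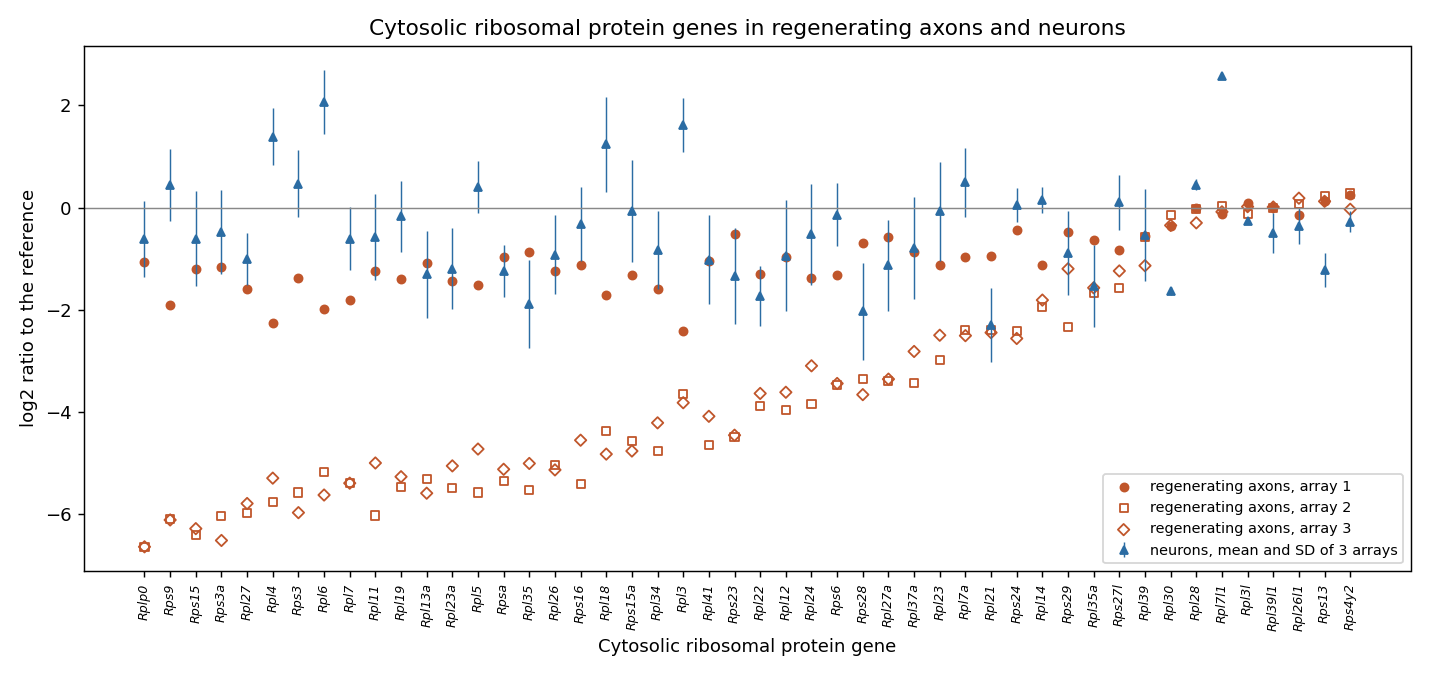
Log2 ratio to the reference (y axis) of 48 cytosolic ribosomal protein genes (x axis, ordered by their mean in regenerating axons), with each regenerating array as its own symbol and neurons as the mean and SD of 3 arrays. Regenerating array 1, filled circles, lies above arrays 2 and 3 in 43 of the 48 genes and within the spread of the neurons in many.

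Many mRNAs of the translation machinery start with a C followed by an unbroken run of pyrimidines, the 5′ terminal oligopyrimidine (TOP) motif, through which their translation follows growth signals. The windows below are shown because ribosomal protein genes were the lowest list in regenerating axons over the mean of 3 arrays, though not on array 1. They were read from RefSeq starts on the GRCr8 assembly, 10 bases before the annotated start and 20 from it on, and the capitals mark a C with at least 4 C or T bases after it that begins within 2 bases of the start. The first 6 have the lowest mean regenerating ratios among the 43 ribosomal protein genes with 1 annotated start. Of these 6, *Rpl4* and *Rps3* hold no such run at their annotated start. Neither do *Rpl6*, the largest fall of the list, and *Rps13*, and *Eef1a1* is the translation factor with the largest fall.
Rplp0 (chr12:46718371-46718400, minus strand): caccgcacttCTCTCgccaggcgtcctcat
Rps9 (chr1:74430418-74430447, minus strand): cggccacgtttCTCTTTgtcacgggcctga
Rps15 (chr7:10068096-10068125, minus strand): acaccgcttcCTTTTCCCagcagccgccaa
Rps3a (chr2:173827023-173827052, minus strand): gtacttccgcCCTTTTggctctcagagcgg
Rpl4 (chr8:73566467-73566496, plus strand): tcttccttttcctgtgggagcagccgggta
Rps3 (chr1:163195757-163195786, minus strand): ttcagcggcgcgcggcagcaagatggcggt
Rpl6 (chr12:41011671-41011700, minus strand): ttacatcactagatggcgggtgaaaaggcg
Rps13 (chr1:180009641-180009670, minus strand): ttcctacctcgttctctctttgcttccaga
Eef1a1 (chr8:88225050-88225079, minus strand): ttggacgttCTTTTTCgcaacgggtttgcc

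Such a run was found in 18 of 43 cytosolic ribosomal protein genes with 1 start in the table (41.9%), beside 943 of 10945 measured genes (8.62%). It was found in 2 of 32 complex I genes (6.25%), 4 of 57 mitochondrial ribosomal protein genes (7.02%) and 7 of 53 translation factors (13.2%). Within the ribosomal list the median log2 ratio in regenerating axons was −2.90 over the 18 genes with the run and −3.26 over the 25 without it. A start annotated a few bases away hides or creates a match, so these counts describe the annotated windows only.

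Translation factors, which load and move ribosomes on mRNA, were lower in 54 of 61 genes, with a median of −1.88. *Eef1a1*, the elongation factor that brings aminoacyl-tRNA to the ribosome, had ratios of 0.179, 0.0292 and 0.0194 in regenerating axons against 12.4, 5.08 and 13.4 in neurons (−7.66 ± 0.79). As in the ribosomal list, regenerating array 1 was the highest of the 3. *Eif2s2*, the beta subunit of initiation factor 2, had closer replicates, at 0.227, 0.151 and 0.158 against 10.9, 7.40 and 10.8 (−5.77 ± 0.23). In the list as a whole 44 of 61 neuron ratios were at least 2, and 15 of 61 regenerating ratios were at most 0.5.

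The share of genes with a regenerating ratio of at most 0.5 was 39 of 48 in the cytosolic ribosomal list, 28 of 34 in complex I, 29 of 45 in complexes II to V and 12 of 18 in the chaperonin list described next, beside 5.27% of all genes.

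**Figure D4:**
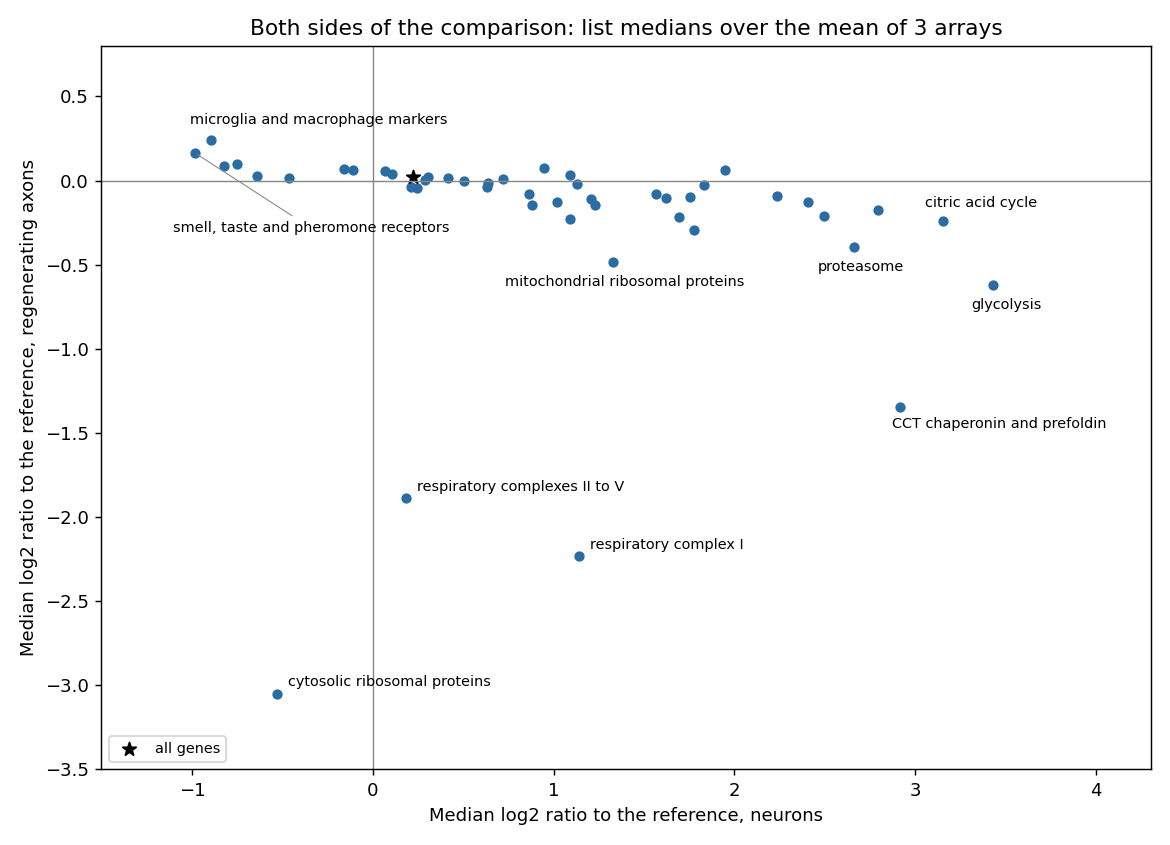
Median log2 ratio to the reference of each of 47 gene lists, in neurons (x axis) and in regenerating axons (y axis), each gene taken as the mean of 3 arrays, with all genes as a star. Most lists lie near 0 on the y axis and spread along the x axis, whereas cytosolic ribosomal proteins (−3.05), complex I (−2.23), complexes II to V (−1.89) and the chaperonin list (−1.34) lie well below 0 in regenerating axons.

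Protein folding and turnover were depleted unevenly, most in the chaperonin and proteasome lists. All 18 genes of the CCT chaperonin and of prefoldin, which fold actin and tubulin, were lower, with a median of −4.30. *Cct7* had ratios of 0.133, 0.0929 and 0.0725 in regenerating axons against 44.2, 26.8 and 46.8 in neurons (−8.63 ± 0.29), and *Cct5* had 0.230, 0.159 and 0.114 against 22.8, 14.5 and 24.9 (−6.97 ± 0.30). This list was depleted from both sides, with 15 of 18 neuron ratios at least 2 and 12 of 18 regenerating ratios at most 0.5.

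Proteasome genes, whose products degrade ubiquitin-tagged proteins, were lower in 42 of 46, with a median of −3.49. *Psmc2*, an ATPase of the regulatory particle, had ratios of 0.120, 0.0815 and 0.137 against 18.8, 8.26 and 27.0 (−7.20 ± 0.42). The gene that was higher on the deposited scale was *Psmb8*, a catalytic subunit of the immunoproteasome (1.42 ± 0.19), and it did not pass after the shift to receptor genes. Ubiquitin conjugating and deubiquitinating enzymes were lower in 55 of 77 and higher in 9, with a median of −1.32. *Uchl1*, a neuronal ubiquitin hydrolase, had ratios of 0.653, 0.538 and 0.623 against 48.2, 21.1 and 59.3 (−6.02 ± 0.36), and *Usp33* had 1, 0.825 and 0.684 against 62.8, 72.4 and 74.1 (−6.39 ± 0.18). Both hydrolases were near the reference in regenerating axons, unlike *Psmc2*.

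Heat shock and J-domain proteins were lower in 50 of 74 genes and higher in 10, with a median of −1.42. *Hspa5*, the chaperone BiP of the endoplasmic reticulum, had ratios of 0.239, 0.276 and 0.251 against 53.1, 39.5 and 57.1 (−7.60 ± 0.17). *Hspa1a*, the stress-inducible HSP70, lay on the other side, with 1.05, 0.991 and 1.17 against 0.299, 0.413 and 0.320 (1.65 ± 0.17).

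Cholesterol synthesis was lower in all 19 genes, with a median of −3.09. *Fdps*, farnesyl diphosphate synthase, had ratios of 0.248, 0.203 and 0.131 against 24.7, 13.5 and 33.1 (−6.89 ± 0.36). *Msmo1*, a sterol demethylation enzyme, had ratios of 0.444, 0.446 and 0.504 against 30.3, 21.2 and 41.3 (−6.01 ± 0.24). In 16 of the 19 the neuron ratio was at least 2, and the list median in regenerating axons was −0.18.

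The secretory pathway was lower in 71 of 91 genes of the endoplasmic reticulum and Golgi (median −1.85), in 33 of 42 genes of the lysosome and vacuolar ATPase (median −2.68) and in 38 of 66 Rab GTPases (median −0.95). *Pdia6*, a disulfide isomerase, had ratios of 0.761, 0.664 and 0.822 against 39.0, 23.7 and 40.0 (−5.48 ± 0.22). *Rab1a*, a GTPase of transport from the endoplasmic reticulum to the Golgi, had 0.306, 0.398 and 0.346 against 42, 31.1 and 48.2 (−6.84 ± 0.20). The vacuolar ATPase acidifies lysosomes and synaptic vesicles. Its subunit *Atp6v1d* had ratios of 0.220, 0.175 and 0.295 against 17.8, 12.9 and 19.0 (−6.18 ± 0.24), whereas the isoforms *Atp6v1b1* and *Atp6v1c2*, known from kidney and other epithelia, were higher on the deposited scale (1.11 ± 0.15 and 1.34 ± 0.14). After the shift to receptor genes *Atp6v1c2* did not pass and *Atp6v1b1* stood at −0.052.

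Granins and prohormone processing genes were lower in 14 of 16, with a median of −2.19 and none higher. The list held the extreme *Cpe* and *Scg3*, and 3 of 16 regenerating ratios (18.75%) were at most 0.5, beside 5.27% of all genes.

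The cytoskeleton was uneven. Microtubule-associated proteins, collapsin response mediators and stathmins were lower in 32 of 33 genes, with a median of −2.81 and none higher. *Dpysl2*, the collapsin response mediator CRMP2 that promotes axon growth, had ratios of 0.267, 0.0823 and 0.0987 against 24.0, 23.5 and 25.3 (−7.55 ± 0.40). *Mapt*, tau, the axonal microtubule-binding protein, had ratios of 0.530, 0.501 and 0.465 against 25.9, 17.8 and 25.0 (−5.50 ± 0.18). *Map2*, the dendritic one, had 0.233, 0.199 and 0.167 against 9.37, 6.94 and 10.2 (−5.46 ± 0.20), but its 2 probe sets gave −10.25 and −0.67. The axonal and the dendritic protein thus had differences of the same size as gene means, with much disagreement inside *Map2*.

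Tubulins were lower in 9 of 16 genes, with a median of −0.66, a count not far above that over all genes. *Tubb2a* had ratios of 0.205, 0.0543 and 0.0398 against 17.6, 12.3 and 17.5 (−7.67 ± 0.55), and *Tubb5* had 0.409, 0.184 and 0.220 against 21.1, 17.0 and 24.1 (−6.33 ± 0.30). *Tubb3*, the neuronal beta-tubulin, was lower by 2.04 ± 0.16 on the log2 scale, but its 2 probe sets gave −5.46 and 1.38. *Tubb1*, the beta-tubulin of platelets, was higher on the deposited scale (1.82 ± 0.32) and did not pass after the shift to receptor genes.

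Actin filament assembly was lower in 46 of 54 genes, with a median of −2.27. *Cdc42*, a GTPase of filopodia, had ratios of 0.345, 0.231 and 0.302 against 24.3, 17.9 and 24.1 (−6.24 ± 0.20). *Rac1*, a GTPase of lamellipodia, reached a like difference, −5.74 ± 0.25, with ratios of 1.14, 0.819 and 1.25 against 61.3, 40.4 and 71.1. *Cdc42* was thus under the reference in all regenerating arrays, while *Rac1* lay on both sides of it. *Actg1*, gamma-actin, was lower by 4.80 ± 0.19, from probe sets at −9.28 and −0.31. The 3 control probe sets of beta-actin had mean ratios of 0.815, 0.803 and 0.767 against 78.4, 47.9 and 91.1. Neuronal and progenitor intermediate filaments were lower in 8 of 10 genes, led by the neurofilament *Nefm* (−5.72 ± 0.41) and *Vim*, vimentin (−4.52 ± 0.18).

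Motor proteins were lower in 31 of 55 genes and higher in 9, with a median of −0.77. *Dctn1*, the large dynactin subunit, had ratios of 1.02, 0.746 and 1.19 against 26.4, 28.5 and 44.2 (−5.06 ± 0.25). *Dync1h1*, the heavy chain of cytoplasmic dynein, which carries cargo back to the cell body, had 1.58, 0.998 and 0.889 against 35.6, 26.1 and 38.7 (−4.88 ± 0.25). Both were near the reference in regenerating axons, so their distance lay in the neurons. *Kif12* (1.72 ± 0.21) and *Kif14* (1.49 ± 0.15) were higher on the deposited scale, and *Kif14* did not pass after the shift to receptor genes.

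Proteins that bind, carry and splice mRNA were lower in most genes. Of 48 mRNA transport and binding proteins 39 were lower, with a median of −2.43, and of 59 splicing genes 51 were lower, with a median of −1.75. *Hnrnph1* had ratios of 0.334, 0.309 and 0.260 against 39.5, 42.7 and 42 (−7.11 ± 0.15). *Ddx39b*, a helicase of splicing and mRNA export, had 0.682, 0.573 and 0.608 against 45.4, 45.6 and 55.6 (−6.30 ± 0.15). *Igf2bp2*, an mRNA-binding protein of the family that carries beta-actin mRNA, was higher on the deposited scale (1.39 ± 0.16) and did not pass after the shift to receptor genes.

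Nuclear transcription and chromatin genes were lower in 86 of 112, with a median of −1.5, and importins and exportins in 24 of 31, with a median of −1.59. *Hdac2*, a histone deacetylase, had ratios of 0.545, 0.703 and 0.739 against 20.9, 27.9 and 17.3 (−5.04 ± 0.21). *Ranbp9*, a Ran-binding scaffold, had 1.35, 0.906 and 0.793 against 20.5, 26.0 and 22.1 (−4.52 ± 0.22). No importin or exportin had a mean regenerating ratio of at most 0.5, beside 5.27% of all genes. Antioxidant proteins were lower in 31 of 48 and higher in 11. *Park7*, the redox protein DJ-1, had 0.185, 0.114 and 0.122 against 9.52, 4.41 and 10.5 (−5.80 ± 0.35), and *Sod1*, the cytosolic superoxide dismutase, had 0.252, 0.116 and 0.120 against 7.62, 5.76 and 9.46 (−5.62 ± 0.33). The secreted *Sod3* lay on the other side on the deposited scale (1.34 ± 0.16), and did not pass after the shift to receptor genes.

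Presynaptic vesicle and SNARE proteins were lower in 39 of 67 and higher in 15, with a median of −0.93. *Snap25*, a membrane SNARE of vesicle release, had ratios of 0.905, 0.702 and 0.389 against 34.4, 23.7 and 32.2 (−5.57 ± 0.31). *Stx7*, an endosomal SNARE, had 0.299, 0.0731 and 0.0902 against 31.4, 18.0 and 36.1 (−7.77 ± 0.52). Of the 67, 2 (2.99%) had a mean regenerating ratio of at most 0.5, beside 5.27% of all genes.

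Dendritic and postsynaptic proteins were lower in 22 of 42 genes and higher in 4, with a median of −0.59. *Cyfip1*, a partner of the mRNA-binding protein FMRP, had ratios of 0.850, 0.784 and 1.12 against 18.3, 24.6 and 20 (−4.52 ± 0.19), and *Camk2b*, a subunit of the calcium-dependent kinase of synapses, had 0.878, 0.959 and 0.786 against 11.5, 11.4 and 12.3 (−3.75 ± 0.14). *Camk2a*, its partner subunit, whose mRNA is known from dendrites, did not pass. It had ratios of 1.10, 1.23 and 1.19 against 1.35, 1.17 and 1.44 (−0.17 ± 0.14; limma adjusted p = 0.31), the groups overlapped, and its 4 probe sets ran from −0.96 to 1.04.

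Glutamate and GABA receptors were lower in 13 of 42 and higher in 18 on the deposited scale, with a median of 0.28, but lower in 28 and higher in 0 after the shift to receptor genes, where the median was −0.88. *Gria2*, the AMPA receptor subunit that sets calcium entry, had ratios of 0.514, 0.640 and 0.758 against 31.5, 34.6 and 32.8 (−5.71 ± 0.17). The GABA receptor subunits *Gabrq* (1.59 ± 0.28) and *Gabre* (1.22 ± 0.18) were higher on the deposited scale. Voltage-gated channels were lower in 14 of 55 and higher in 23 on the deposited scale, with a median of 0.15, and lower in 34 and higher in 1 after that shift, with a median of −1.01. *Scn2a*, a sodium channel of axons, had 0.645, 0.782 and 0.943 against 15.5, 9.98 and 13.1 (−4.02 ± 0.21), and *Cacna2d1*, an auxiliary calcium channel subunit, had 1.10, 1.10 and 0.930 against 11.1, 9.44 and 14.1 (−3.45 ± 0.18). The channel genes *Kcnh4* (1.63 ± 0.20) and *Scn4b* (1.60 ± 0.15) were higher on the deposited scale. None of the genes of either list had a mean regenerating ratio of at most 0.5, beside 5.27% of all genes.

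Guidance and adhesion genes lay close to the median of all genes. Guidance ligands and receptors were lower in 31 of 64 and higher in 11 (median −0.39), and axonal adhesion proteins in 31 and 20 of 64 (median −0.32). *Rtn4*, the outgrowth inhibitor Nogo, had ratios of 1.07, 1.02 and 1.03 against 48.0, 29.2 and 56.4 (−5.36 ± 0.24). *Efnb3*, an ephrin, had 0.724, 0.783 and 0.8 against 13.2, 10.5 and 15.1 (−4.06 ± 0.17). *Nptn*, the adhesion protein neuroplastin, had 1.39, 0.659 and 1.05 against 165, 130 and 162 (−7.26 ± 0.27). *Ctnna2*, the neuronal alpha-catenin, had 0.158, 0.0600 and 0.0606 against 3.15, 2.79 and 3.84 (−5.28 ± 0.37), so its depletion, unlike that of *Nptn* and *Rtn4*, lay mainly below the reference in regenerating axons. *Itgb6*, an integrin subunit of epithelia, was the largest rise of these lists on the deposited scale, with ratios of 1.15, 1.35 and 1.24 against 0.247, 0.229 and 0.190 (2.49 ± 0.15).

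Genes known to be induced in neurons that regrow axons were lower in 23 of 50 (46.0%) and higher in 13 (26.0%), with a median of −0.57. Over all genes these shares were 44.2% and 31.3%. The list median was −1.73 after the shift to receptor genes. Over the settings tried, as many as 41 were lower and as few as 0 higher. *Gap43*, a growth cone protein, had ratios of 0.565, 0.318 and 0.271 in regenerating axons against 2.30, 2.46 and 2.07 in neurons (−2.64 ± 0.27), but its 2 probe sets gave −5.58 and 0.31. *Sprr1a*, a small proline-rich protein induced by nerve injury, had 0.983, 1.19 and 0.852 against 0.433, 0.491 and 0.423, a difference of 1.16 ± 0.16 on the deposited scale and −0.0051 after the shift to receptor genes. *Gal*, the neuropeptide galanin (1.41 ± 0.23), and *Lif*, leukaemia inhibitory factor (1.27 ± 0.28), were higher on the deposited scale and did not pass after that shift. *Bdnf*, a neurotrophin, had 1.03, 0.904 and 1.01 against 1.41, 1.06 and 1.86, a difference of −0.52 ± 0.21 that did not pass (limma adjusted p = 0.054), with probe sets at −1.16 and 0.12.

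Immediate early genes were lower in 12 of 30 (40.0%) and higher in 10 (33.3%), beside 44.2% and 31.3% of all genes. After the shift to receptor genes their median went from 0.04 to −1.12. The members of the largest changes were *Egr1*, with ratios of 0.571, 0.626 and 0.471 against 9.30, 12.5 and 8.45 (−4.17 ± 0.19), *Myc* (−3.39 ± 0.25) and, on the deposited scale, *Fosl1* (1.44 ± 0.18) and *Fosl2* (1.22 ± 0.17), all transcription factors of growth or activity. The latter 2 did not pass after the shift to receptor genes. Apoptosis and stress kinase genes were lower in 20 of 51 (39.2%) and higher in 18 (35.3%), again near the shares of all genes. Their median went from 0.02 to −1.15 after that shift. Over the settings tried, as many as 40 were lower and as few as 1 higher. *Bad*, which promotes apoptosis, had ratios of 0.349, 0.313 and 0.281 against 8.54, 3.74 and 10.4 (−4.47 ± 0.36), and *Bcl2l10*, a member of the same family, had 1.63, 1.73 and 2.28 against 0.457, 0.598 and 0.350 (2.02 ± 0.23). Cell cycle and DNA replication genes were lower in 17 of 43 (39.5%), or in 11 without neuron array 1, and higher in 9 (20.9%). Their median of −0.22 was near that of all genes (−0.23) and went to −1.39 after the shift to receptor genes. *Pcna*, the DNA polymerase clamp, had ratios of 0.597, 0.605 and 0.662 against 12.3, 5.90 and 12.5 (−3.96 ± 0.29). *Mki67* (1.36 ± 0.16) and *Mcm3* (1.16 ± 0.15) went the other way on the deposited scale, and *Mcm3* turned negative after the shift to receptor genes.

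Cell type markers bear on what the neuron samples held. Excitatory cortical neuron markers were lower in regenerating axons in 19 of 28 genes and higher in 3, and interneuron and neuropeptide markers in 12 and 5 of 23. *Crym*, a cortical layer marker, had ratios of 0.189, 0.0566 and 0.0846 against 8.51, 4.71 and 10.5 (−6.27 ± 0.46). *Neurod6* had 0.337, 0.600 and 0.474 against 5.46, 4.16 and 8.33 (−3.65 ± 0.30). *Sst*, somatostatin, had 0.642, 0.769 and 0.856 against 56.1, 16.4 and 69.2 (−5.73 ± 0.49). Other markers went the other way on the deposited scale, among them *Eomes* (1.16 ± 0.21), *Neurog2* (0.74 ± 0.17), *Nos1* (1.01 ± 0.20) and *Pdyn* (1.01 ± 0.13), all of which turned negative after the shift to receptor genes. A neuron ratio of at least 2 was found in 13 of 28 excitatory and 10 of 23 interneuron markers.

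Astrocyte markers were lower in 24 of 29 genes and higher in 3, with a median of −1.88. *Gfap*, the astrocyte intermediate filament, had ratios of 1.19, 0.905 and 1.06 in regenerating axons against 16.4, 14.4 and 12.5 in neurons (−3.78 ± 0.17). *Fabp7*, a fatty acid carrier of radial glia and astrocytes, had 0.307, 0.191 and 0.279 against 84.5, 32.0 and 87.0 (−7.93 ± 0.39), and *Cst3*, cystatin C, had 0.208, 0.0899 and 0.0700 against 29.3, 13.7 and 46.3 (−7.92 ± 0.52). Of 29 astrocyte genes 20 had a neuron ratio of at least 2, and the list medians by array were 2.33, 1.68 and 2.37 in neurons and −0.01, 0.00 and −0.06 in regenerating axons. Among oligodendrocyte lineage markers, 10 of 21 were lower and 7 higher. *Olig1*, a factor of the lineage, had 0.193, 0.134 and 0.114 against 16.3, 23.4 and 21.7 (−7.14 ± 0.23). *Mog*, a myelin protein, went the other way, with 1.08, 1.76 and 1.37 against 0.352, 0.496 and 0.325 (1.84 ± 0.23 on the deposited scale), as did *Opalin* (0.99 ± 0.23), which turned negative after the shift to receptor genes. The list median of −0.15 and the share lower (47.6%) lay near those of all genes (−0.23 and 44.2%). The 7 became 3 without regenerating array 2 or 3 and 2 without neuron array 1 or 3. In bulk samples fewer cells of a type and less RNA per cell cannot be told apart, and the part of glial RNA in the difference of other lists was not tested.

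At the least depleted end stood the lists of smell, taste and pheromone receptors, of microglia and macrophage markers, and of blood cell markers. On the deposited scale, smell, taste and pheromone receptors were higher in 37 of 41 genes and lower in 0 (median 1.12), microglia and macrophage markers were higher in 28 of 30 and lower in 1 (median 1.11), and blood cell markers were higher in 20 of 21 and lower in 0 (median 0.88). After the shift to receptor genes, which sets the first list near 0 by construction, the microglia list had 3 higher and 4 lower (median −0.05) and the blood list 3 higher and 5 lower (median −0.28). Relative to the median of all genes these 3 lists lay 1.36, 1.35 and 1.11 above it under either scale.

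*Or7a37*, an odorant receptor, had ratios of 1.5, 1.82 and 1.44 in regenerating axons against 0.348, 0.406 and 0.294 in neurons (2.19 ± 0.17 on the deposited scale). *C1qa*, a complement component of microglia, had 1.31, 1.64 and 1.36 against 0.423, 0.411 and 0.391 (1.81 ± 0.14). *Cd74*, a chaperone of MHC class II, had 1.16, 1.45 and 1.22 against 0.393, 0.410 and 0.317 (1.78 ± 0.16), and *Hbb*, beta-globin, had 1.14, 1.46 and 1.69 against 0.417, 0.385 and 0.377 (1.84 ± 0.17). All 4 were above the reference in the regenerating arrays and at 0.294 to 0.423 of it in the neuron arrays.

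Cytokines and chemokines, a list that also holds some of their receptors, were higher in 54 of 74 and lower in 5 on the deposited scale (median 0.75), but 7 higher and 35 lower after the shift to receptor genes (median −0.41). Genes of muscle, liver, pancreas and testis were higher in 39 of 59 and lower in 3 (median 0.63), but 1 higher and 29 lower after that shift. Endothelial, pericyte and fibroblast markers were higher in 19 of 34 and lower in 6 (median 0.54), but higher in 0 and lower in 20 after it. The median log2 ratios of these 3 lists were −0.75, −0.64 and −0.46 in neurons and 0.10, 0.03 and 0.01 in regenerating axons. *Cxcl2*, a neutrophil chemokine, had ratios of 1.64, 1.68 and 2.90 against 0.477, 0.426 and 0.432 (2.17 ± 0.23). *Cx3cl1*, a chemokine made by neurons, went the other way, with 1.53, 1.47 and 1.16 against 4.55, 5.80 and 8.58 (−2.15 ± 0.24). Beside these lists, the hybridisation controls were higher in regenerating axons by 1.69 and the probe set of 5S ribosomal RNA by 3.16 on the log2 scale. Their part in the higher calls was not tested. Without neuron array 2, whose hybridisation controls were near the reference, 37 of 41 receptor genes and 29 of 30 microglia genes were higher. That fit keeps neuron arrays 1 and 3, whose controls were at 0.356 and 0.197, so its counts cannot show the part of the controls. The receptor list medians in neuron arrays 1 to 3 were −1.01, −0.74 and −1.06. Those of the microglia list were −0.87, −0.67 and −1.07, so array 2 was the least low in both.

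The 10 largest rises on the deposited scale ran from 3.58 ± 0.32 for *Bnc2*, a zinc finger protein, to 2.47 ± 0.29 for *Ikzf2*, the lymphocyte factor Helios. *Bnc2* had ratios of 1.04, 1.72 and 2.05 in regenerating axons against 0.117, 0.190 and 0.0972 in neurons, so most of its difference lay below the reference in neurons. *Cavin2*, a coat protein of caveolae, was, of the 10, the one furthest above the reference in regenerating axons, with 1.79, 3.57 and 2.71 against 0.372, 0.391 and 0.504 (2.63 ± 0.26). *Sostdc1*, a secreted antagonist of BMP and Wnt signals, had 1.64, 1.85 and 1.65 against 0.289, 0.344 and 0.226 (2.60 ± 0.18). *RT1-T24-4*, an MHC class I gene, had 1.98, 1.86 and 1.90 against 0.338, 0.293 and 0.325 (2.59 ± 0.13). The other six were *Rpl37-ps2*, *Mfap3l*, *Nars2*, *Chchd4l1*, *Itgb6* and *Ikzf2*. Of the 4444 higher genes, 3142 (70.7%) had a neuron ratio above 0.5 and a regenerating ratio under 2. In 1288 (29.0%) the neuron ratio was at most 0.5 and the regenerating ratio between 0.5 and 2. Only 29 of the 4444 rose by more than the highest receptor gene.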

How the data were processed

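Expression was measured on 13 GeneChip arrays, of which the 3 of regenerating axons and the 3 of neurons were compared, grouped by title. The deposited table holds linear ratios, made by the authors with RMA, per the submitters' processing notes, which name no version or reference. Repeated amplification can distort relative levels, and ratios hide whether a transcript was above background. The array's annotation gave 1 symbol to 20826 of 31042 non-control probe sets, several to 436 and none to 9780 (20758 identifiers were found in a GRCr8 gene table, with 0 symbol changes). Log2 ratios were averaged per gene (9692 of 14217 genes had 1 probe set) and fitted with limma 3.58.1 (lmFit, eBayes, R 4.3.3), with p-values adjusted by Benjamini-Hochberg over all genes, threshold 0.05. Tests were checked on simulated data. Same-numbered arrays deviated with r = 0.17, 0.18 and −0.11, so numbers were not treated as pairs.

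The comparison and the 47 lists were chosen with earlier results of these data known. Named genes are the 10 largest falls and rises among called genes with non-overlapping groups and probe sets of 1 direction (symbols beginning LOC or RGD skipped), the 2 largest falls and rises of each list, and 12 fixed genes, 184 in all. Start windows show the 6 lowest of the ribosomal genes with 1 annotated start and 3 others, chosen after values were seen. Alternatives were other scalings, probe-set rules, a pseudocount of 0.05, pooled spread, robust and weighted fits, a replicate block and leaving out each array.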

Additional observations from a re-analysis of the deposited data

How the results depend on the processing

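Lower and higher counts of genes stayed within 1.5 times those reported (6279 and 4444) under the scalings, probe-set rules and fits tried, with 1 exception given below. Leaving out each array gave 5720 to 6609 lower and 3838 to 4504 higher, and the replicate block gave 6189 and 4235, changing 1 call among the 184 named genes to not passed (*Eif4ebp3*) and 1 to passed (*Bdnf*). Each probe set by itself gave 8660 lower and 6399 higher of 20826, without values for lists or named genes. Only the shift to receptor genes, chosen after the data were seen, moved the counts further, to 11022 lower and 262 higher. Under it 26 named genes turned from higher to negative values: *Atp6v1b1* −0.052, *Begain* −0.24, *Copz2* −0.44, *Cox4i2* −0.60, *Cox7b2* −0.51, *Diaph1* −0.47, *Dio2* −0.56, *Dnmt3b* −0.034, *Eef1akmt4* −0.54, *Eif4ebp3* −0.71, *Eomes* −0.0049, *Epha2* −0.020, *Limk1* −0.042, *Mcm3* −0.00032, *Mrpl40* −0.59, *Neurog2* −0.42, *Nos1* −0.15, *Opalin* −0.17, *Pdyn* −0.15, *Rcc1* −0.36, *Sf3a2* −0.51, *Slc7a10* −0.33, *Sprr1a* −0.0051, *Synpo* −0.094, *Taf12* −0.19 and *Tomm34* −0.63. A further 32 named higher genes did not pass under it. *Bdnf* passed with pooled spread, array weights, without neuron array 2 and under that shift. With arrays shifted to the same median, the number of higher genes went from 9 to 15 in motor proteins and in Rab GTPases, from 11 to 18 in guidance, from 9 to 14 in cell cycle, from 4 to 8 in dendritic, from 5 to 8 in interneuron, from 3 to 6 in cytosolic ribosomal, from 6 to 10 in nuclear transcription, from 1 to 3 in tubulin and from 1 to 2 in importin and exportin genes. Cytosolic ribosomal proteins moved between ranks 7 and 17 of the 47 lists. The number of arrays limits the precision, and signal over background is not known from ratios.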
